A study of Homo sapiens with 4 samples.

Results

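MYC, its partner MAX and the proteins that compete with MYC for MAX form a network of transcription factors, and 10 of its genes were followed here: MYC, MAX, MXD1, MXD3, MXD4, MXI1, MNT, MGA, MLX and MLXIP. They were chosen by name, by the gene symbol printed beside each probe in the annotated table of the arrays, and make up 10 of 34755 genes on the array, with 23 of 58201 probes and 32 of 60901 spots that are not controls. The cells were SUM149, an established line from an inflammatory breast cancer. One group was left untreated, and the others received 2.5 uM of Ricolinostat (ACY1215) for 3, 6 or 12 h. Ricolinostat is an inhibitor of the cytoplasmic deacetylase HDAC6. The authors describe newer HDAC6 inhibitors as more selective than this drug, with less off-target action on class I deacetylases. Total RNA of each group was labelled with Cy5 and hybridised to an Agilent array read in both colours together with a Cy3-labelled reference, which the labels call a pool of the treated and untreated cells of this line. The values go against that label, since a gene such as CDKN1C had log2 ratios of -4.32 to -3.04 on all 4 arrays, so a ratio is not read here as a level relative to these samples. All groups are the same cell line, no genetic change or second drug is named, and 0 arrays of vehicle-treated cells at 3, 6 or 12 h were analysed here. Time in culture and treatment therefore cannot be told apart.

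MYC is a short-lived basic helix-loop-helix leucine zipper protein that drives growth and proliferation in many cancers, basal-like breast cancers among them. It binds DNA only as a dimer with MAX, at the E-box CACGTG, and recruits acetyltransferase complexes there. MXD1, MXI1, MXD3, MXD4 and MNT bind MAX and the same DNA letters, bring SIN3 corepressor complexes with nuclear deacetylases to the site, and oppose MYC, with MXD1 known for its rise in differentiating cells. MGA pairs with MAX in a Polycomb complex, and MLX pairs with MXD1, MXD4, MNT or the glucose sensor MLXIP in a parallel branch.

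Because the proteins of this network bind the E-box, the letters in front of the members' own genes were read first. RefSeq windows of the 250 bases before an annotated start site (GRCh38.p14) were found for 9 of the 10 members, 14 windows in all. The member without a window was MYC itself, so the letters in front of MYC were not searched. They were searched for the E-box CACGTG, which reads the same on both strands, and for the GC box GGGCGG on either strand. Matches of the 2 motifs overlapped in 0 member windows. The E-box was in 3 of 14 member windows (21.4%), compared with 2228 of 35116 windows of all genes (6.34%). The members with an E-box were MXD4, MNT and MLX, and their windows follow because they show where the network's own letters lie, with the E-box in capitals.
MXD4, chr4:2262110-2262359, minus strand: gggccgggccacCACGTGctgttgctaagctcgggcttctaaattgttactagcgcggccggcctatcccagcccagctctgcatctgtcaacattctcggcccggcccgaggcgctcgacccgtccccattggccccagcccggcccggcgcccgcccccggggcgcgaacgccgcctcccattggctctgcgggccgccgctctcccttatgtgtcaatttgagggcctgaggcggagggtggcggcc
MNT, chr17:2401061-2401310, minus strand: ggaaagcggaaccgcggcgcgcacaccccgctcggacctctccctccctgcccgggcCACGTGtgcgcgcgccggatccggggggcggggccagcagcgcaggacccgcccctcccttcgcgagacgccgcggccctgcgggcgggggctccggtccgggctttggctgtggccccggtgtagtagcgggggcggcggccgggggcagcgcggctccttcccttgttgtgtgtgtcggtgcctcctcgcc
MLX, chr17:42566850-42567099, plus strand: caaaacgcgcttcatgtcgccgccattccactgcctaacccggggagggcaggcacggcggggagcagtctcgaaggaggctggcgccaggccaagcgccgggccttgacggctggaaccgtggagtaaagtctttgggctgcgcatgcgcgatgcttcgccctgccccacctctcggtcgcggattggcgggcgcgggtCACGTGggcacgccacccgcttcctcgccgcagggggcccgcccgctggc
The E-box began 238 bases before the start site in MXD4, 193 bases before it in MNT and 50 bases before it in MLX. MXD1, the member with the highest change in the arrays, had no CACGTG in its window, which is shown with its GC boxes in capitals.
MXD1, chr2:69914859-69915108, plus strand: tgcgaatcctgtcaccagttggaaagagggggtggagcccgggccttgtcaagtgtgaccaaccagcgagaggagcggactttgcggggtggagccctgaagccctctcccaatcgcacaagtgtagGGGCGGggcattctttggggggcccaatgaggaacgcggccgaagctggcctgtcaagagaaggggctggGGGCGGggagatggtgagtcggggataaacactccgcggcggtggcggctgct
The MXD1 window held 2 GC boxes. A GC box was in 11 of 14 member windows (78.6%) and in 42.6% of all windows. These matches describe letters in a window and say nothing of binding in SUM149 cells.

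Each array held 62976 spots. The median Cy5 signal was 36 to 40 units of scanner intensity with local background at a median of 24 units, and the Cy5 channel was well above background for 63.3% to 67.0% of genes. Damaged areas held 3.37% of the spots in untreated cells, 4.59% at 3 h, 0.186% at 6 h and 0% at 12 h, and no spot of a member was in one. The epithelial markers were above background in all arrays for 6 of 6 genes and the basal breast markers for 6 of 6 genes. Of the 3 luminal receptors, ESR1 and ERBB2 were above background and PGR was not. The mark does not tell cell types apart, since all 3 liver genes and all 4 leukocyte genes carried it as well, with summed raw signals of 321.5 to 477 and 1141.5 to 1525.5 units per array, the latter mostly from CD14 (770 to 1150.5 units). HDAC6, the target of the drug, gave log2 ratios of -0.82, -1.23, -1.08 and -1.34 on its brighter probe, in the order untreated, 3 h, 6 h and 12 h that is used below as array order. Its dimmer probe gave -0.01, -0.26, -0.01 and -0.21, with smaller changes from untreated.

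With 1 array per time point there was no replicate and no test between times, and every difference below compares arrays, not conditions. A change is a treated array's log2(Cy5/Cy3) minus that of the untreated array, so that a shared reference drops out. All changes from untreated share this 1 array. As technical error, the SD of such a change between repeated spots of 1 probe was 0.16 at 3 h, 0.12 at 6 h and 0.12 at 12 h over 300 probes. It holds no spread between cultures. A gene was counted as risen or fallen past 2-fold, or past 1.5-fold where that is said. It was represented by its probe with the highest mean Cy3 signal, and 22 of the 23 member probes were well above background in Cy5 and in Cy3 on each of the 4 arrays. Levels of different probes are not set against each other, so no order of the members by level is given. A smaller share of cells with a gene's RNA and less of that RNA per cell cannot be told apart in such samples.

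MYC itself was lower on every treated array. Its main probe (A_23_P215956, 10 spots per array) had log2 ratios of -0.45 in untreated cells, -1.34 at 3 h, -1.52 at 6 h and -0.79 at 12 h. The untreated array was the highest and the 6 h array the lowest, and the 12 h array lay between them. The changes from untreated were -0.90 at 3 h, -1.07 at 6 h and -0.35 at 12 h, which is 1.86-fold, 2.10-fold and 1.27-fold lower. Over the 7 spots kept on all 4 arrays the change was -0.95 ± 0.09 (SD between spots) at 3 h, -1.08 ± 0.11 at 6 h and -0.36 ± 0.09 at 12 h. The raw Cy5 signal of this probe was 8399.9 units in untreated cells, 4435.5 at 3 h, 3049.8 at 6 h and 4588 at 12 h. The Cy3 signal of the same probe differed from the untreated array by -0.10, -0.02 and -0.09 on the log2 scale.

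Agilent's software had flagged 3 of the 10 MYC spots on the untreated array and 2 of 10 at 6 h as outliers. The flagged untreated spots were at -0.34 to -0.19, and the spots kept were at -0.57 to -0.36. The flags thus took out higher untreated values, and with all 10 spots kept, which was decided once the values were known, the changes were -0.96 at 3 h, -1.10 at 6 h and -0.41 at 12 h. In either case no untreated spot lay as low as any treated one. The other MYC probe (A_33_P3245163), designed on the sequence M13930, was not well above background on any array, at 24 to 27 units, and says nothing of a change.

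**Figure D1:**
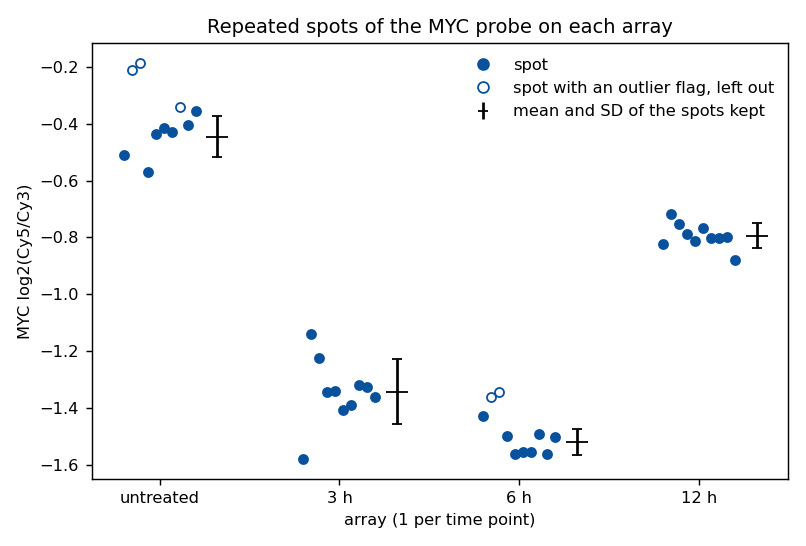
Log2 ratio of Cy5 over Cy3 (vertical axis) of the repeated MYC spots on the untreated, 3 h, 6 h and 12 h arrays, with spots flagged as outliers drawn open and the mean and SD of the spots kept beside them. The spots kept average -0.45, -1.34, -1.52 and -0.79, and the spots of the untreated array lie above those of all other arrays.

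**Figure D2:**
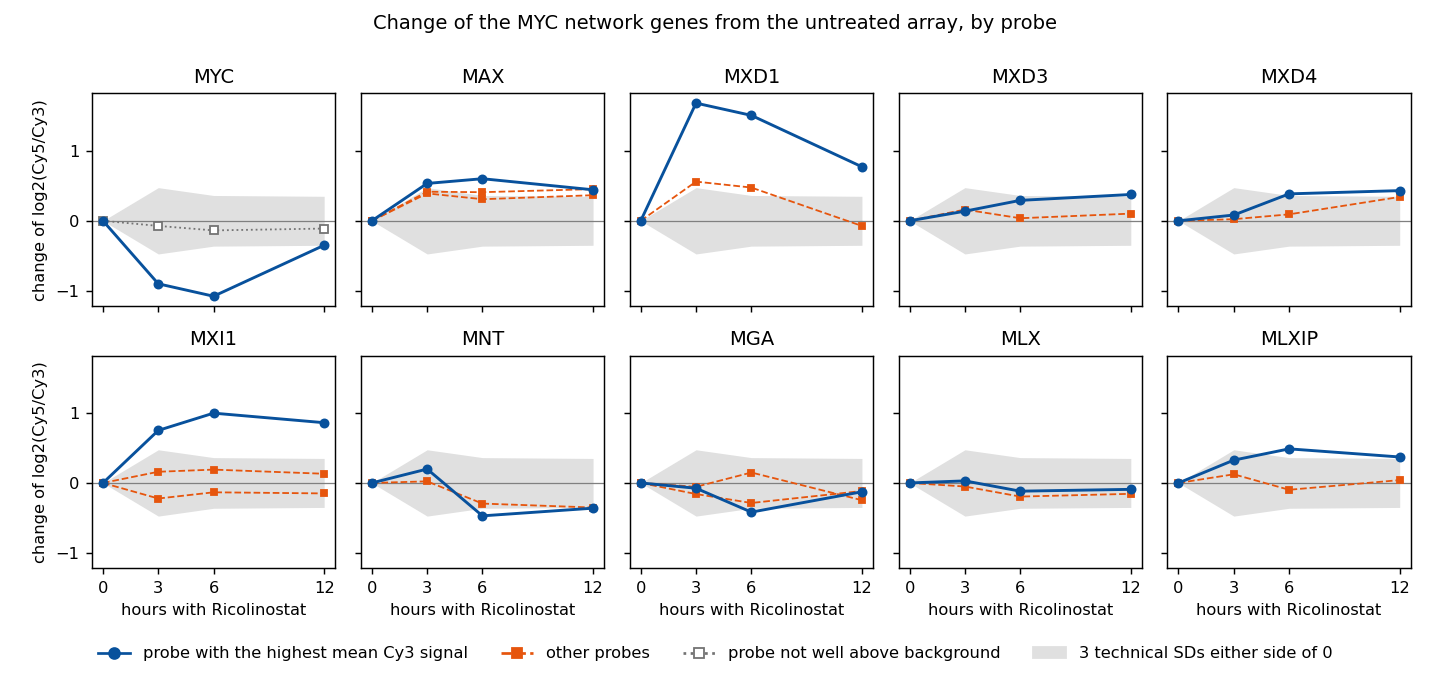
Change of log2(Cy5/Cy3) from the untreated array (vertical axis) against hours with Ricolinostat for each probe of the 10 genes, with the probe of the highest mean Cy3 signal in blue, other probes in orange and the MYC probe that was not above background in grey. The grey band spans 3 technical SDs either side of 0. MYC reaches -1.07 at 6 h and MXD1 1.68 at 3 h, while the lines of MLX stay inside the band.

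MAX, the partner that MYC and all of its antagonists share, had a higher ratio than untreated on every probe and at every time. Its main probe (A_23_P205549) had log2 ratios of -0.14, 0.39, 0.46 and 0.30 in the untreated, 3 h, 6 h and 12 h arrays. The changes were 0.53, 0.60 and 0.44, the second of which passed 1.5-fold. The other probes, for NM_197957 and NM_145114, gave 0.39 and 0.41 at 3 h, 0.31 and 0.41 at 6 h, and 0.36 and 0.45 at 12 h. These 2 probes had raw Cy5 signals of only 64 to 162 units. At 3 h the Cy5 signal of the NM_197957 probe, taken after the main normalization, differed by -0.04 and its Cy3 signal by -0.42, so its 3 h value lay in the reference channel.

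MXD1, the antagonist known from differentiating cells, had the highest change of all members. Its main probe (A_24_P379750) had log2 ratios of -0.97 in untreated cells, 0.70 at 3 h, 0.53 at 6 h and -0.20 at 12 h. The 3 h array was the highest, and the 12 h array was nearer to the untreated one. The changes of 1.68, 1.501 and 0.77 are 3.19-fold, 2.83-fold and 1.70-fold higher. The raw Cy5 signal was 298 units in untreated cells, 1148.5 at 3 h, 796 at 6 h and 408 at 12 h. The dimmer MXD1 probe (A_23_P408094), annotated to the same transcript NM_002357 and at 69 units in untreated cells, gave 0.56, 0.47 and -0.07, so the 2 probes agree in direction at 3 and 6 h but not at 12 h. Of 20766 genes measured at 3 h, 34 had a change as high as that of MXD1, itself included, and 108 one as low as that of MYC.

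MXI1, another MAX-binding antagonist, was higher on 2 of its 3 probes. The main probe (A_23_P161399) had log2 ratios of -1.12, -0.37, -0.13 and -0.26 in array order, which gives changes of 0.75, 0.99 and 0.86. All treated arrays were above the untreated one and past 1.5-fold, and none reached 2-fold. The Cy3 signal of this spot, labelled as the same RNA on each array, differed from the untreated array by -0.48 at 3 h, -0.22 at 6 h and -0.33 at 12 h, and in the Cy5 channel alone the changes were 0.21, 0.72 and 0.51. The Cy3 channel thus moved against the Cy5 channel at this spot, and its part in the result was not tested. The other probe for NM_130439 gave 0.16, 0.19 and 0.13, and the probe for the variant NM_005962 gave -0.22, -0.13 and -0.15 at raw signals of 34 to 41 units, close to the background.

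MXD3 and MXD4, the remaining MXD genes, differed less from untreated. MXD3 had log2 ratios of -0.74, -0.61, -0.45 and -0.37 in array order, with changes of 0.14, 0.29 and 0.37. MXD4 had log2 ratios of -1.36, -1.28, -0.98 and -0.93, with changes of 0.08, 0.38 and 0.43. Both were highest at 12 h, and neither passed 1.5-fold at any time. Their second probes were also higher at each time, at 0.04 to 0.16 for MXD3 and 0.02 to 0.34 for MXD4.

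MNT, the broadly expressed antagonist, was the only member whose change was positive at 3 h and negative later on both probes. The main probe (A_23_P341443) had log2 ratios of -0.38, -0.18, -0.84 and -0.73 in array order. The changes were 0.20 at 3 h, -0.47 at 6 h and -0.36 at 12 h. The second probe gave 0.02, -0.29 and -0.35. The 3 h change was near the technical SD of 0.16 on the main probe and well inside it on the second, and the 6 h change of the main probe is past 3 technical SDs.

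MGA, which pairs with MAX in a Polycomb complex, had log2 ratios of -0.76, -0.83, -1.17 and -0.88, with changes of -0.08, -0.42 and -0.13. Its other probes gave -0.16, -0.29 and -0.12 for NM_001080541 and -0.06, 0.15 and -0.25 for ENST00000619521, so the 3 probes disagree in direction at 6 h. MLX, the MAX-like partner of the parallel branch, had log2 ratios of 0.47, 0.50, 0.35 and 0.38, and the changes of its probes lay between -0.19 and 0.03. MLXIP, the glucose-sensing partner of MLX, had log2 ratios of -0.73, -0.40, -0.24 and -0.36, with changes of 0.32, 0.49 and 0.37, while its second probe gave 0.12, -0.10 and 0.04.

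Counted together, MXD1 was the 1 member that rose past 2-fold at 3 h, where 1.69% of all genes did, and 0 fell, against 0.371% of all genes. At 6 h MXD1 rose past 2-fold (2.82% of all genes) and MYC fell past it (0.939%). At 12 h 0 members passed 2-fold, where 2.34% of all genes rose and 1.12% fell. Past 1.5-fold, MXD1 and MXI1 rose and MYC fell at 3 h (6.87% and 1.96% of all genes), MAX joined the rises at 6 h (9.4% and 4.42%), and only MXD1 and MXI1 passed it at 12 h (8.1% and 5.13%). Changes over 3 technical SDs were seen in 4 of 10 members at 3 h, 8 of 10 at 6 h and 7 of 10 at 12 h, beside 13.02%, 27.8% and 28.1% of all genes. These counts rest on the main probe of each gene. At 6 h, where the limit was 0.36, the other probes of MXD4, MXI1, MNT, MGA and MLXIP were all inside it. The second MXD1 probe (0.47) was outside it, and MAX had other probes on both sides of it (0.31 and 0.41). At 12 h the limit was 0.349, and MYC at -0.348 was just inside it. The other probes of MXD1, MXD3, MXD4, MXI1 and MLXIP were inside the 12 h limit too. Those of MAX (0.36 and 0.45) and MNT (-0.350) were outside it. The median change of the 10 genes was 0.17 at 3 h, 0.34 at 6 h and 0.37 at 12 h, where the medians of all genes were 0.01, 0.02 and 0.01. With each array centred on its median in place of loess, the member median at 12 h was 0.04 and that of all genes -0.16.

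The 6 h and 12 h arrays carried the fewest damaged spots and were compared directly. MYC was higher at 12 h than at 6 h by 0.73 on the log2 scale (1.65-fold), and over the 8 spots kept on both arrays by 0.71 ± 0.07 (SD between spots). MXD1 was lower at 12 h than at 6 h by a log2 difference of -0.73 (1.66-fold) on its main probe and -0.55 on the other. MYC was thus back toward its untreated ratio and MXD1 too, in opposite directions. None of the members passed 2-fold here (0.0676% of all genes rose and 0.0579% fell), while MYC was the 1 member higher past 1.5-fold (0.473% of all genes) and MXD1 the 1 member lower (1.15%). Of 20717 genes, 43 had a difference as high as that of MYC and 82 one as low as that of MXD1, each included. The MGA probes disagreed, at 0.29, 0.17 and -0.39, and on their main probes the other members differed by 0.16 or less in size.

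**Figure D3:**
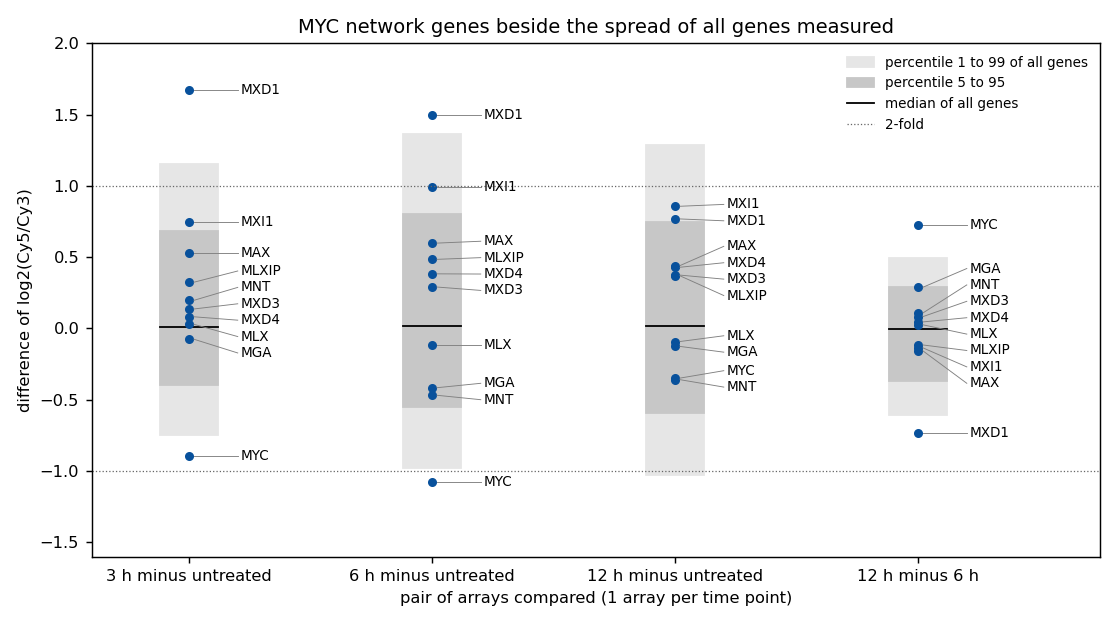
Difference of log2(Cy5/Cy3) (vertical axis) of the 10 genes, each by its main probe, for 4 pairs of arrays, over bars of the percentiles of all genes measured. MXD1 at 1.68 and MYC at -0.90 lie outside percentiles 1 to 99 at 3 h, and between 6 h and 12 h MYC at 0.73 and MXD1 at -0.73 lie outside them on the other sides.

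By likeness of the 3 changes, the genes nearest to MYC among 18580 genes with clear signal on each array and undamaged spots included ND5, ZNF341, ID3 and CLIP4, at Euclidean distances of 0.17 to 0.24. ND5, a mitochondrial gene of respiratory complex I, had changes of -0.91, -0.91 and -0.38. ID3, an inhibitor of helix-loop-helix factors, had changes of -0.73, -0.94 and -0.40. These are likenesses over 4 arrays only.

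Genes that work with the network were taken as 8 lists, with a further list of 3 relatives outside the rule. Of those relatives, MYCN was not well above background, MLXIPL had a change of 0.27 at 12 h, and MYCL had 0.87, 1.32 and 0.94 on a probe whose untreated spot was damaged. The other MYCL probe gave 0.15 at 12 h. The MYCL rise past 2-fold at 6 h thus rests on a damaged spot.

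MYC coactivators were mostly lower, with a median of -0.17 at 3 h, -0.27 at 6 h and -0.19 at 12 h. The 12 h median was lower, between -0.57 and -0.35, under 6 alternatives (both other background corrections, Feature Extraction's ratio, the authors' table, Cy5 alone and median centring), and in these it was below the 6 h median. At 12 h 13 of 17 were below 0, 5 fell past 1.5-fold (5.13% of all genes) and 0 rose past it (8.1% of all genes). SMARCB1, a subunit of the SWI/SNF remodelling complex that binds MYC, had log2 ratios of 0.23, -0.06, -0.36 and -0.998, a change of -1.23 at 12 h, and its second probe gave -1.03. KAT2A, an acetyltransferase of the SAGA complex, had log2 ratios of -0.27, -0.44, -0.82 and -1.49, a change of -1.22. Both were lower at each later time. The highest value at 12 h was 0.41 for SUPT5H, an elongation factor. KAT5, the acetyltransferase of the TIP60 complex, chosen after its values were seen, had -0.65, -1.07 and -0.83.

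The corepressors of MXD and MNT proteins, with MIZ1 (ZBTB17), had medians of 0.27, 0.23 and 0.19, and 12 of 15 genes were above 0 at 12 h. The 12 h median was above 0 in every setting but median centring, which gave -0.11, where the median of all genes was -0.16. SAP30, a SIN3 complex subunit measured by 10 spots, had log2 ratios of 0.40, 1.44, 1.78 and 1.67 and rose past 2-fold at each time (1.04, 1.38 and 1.27). It was the 1 gene of the 15 past 1.5-fold at 12 h, where 8.1% of all genes rose past it and 5.13% fell. SIN3A itself gave 0.20, 0.10 and 0.10.

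The Polycomb partners of MGA had medians of 0.16, 0.06 and -0.13, with 3 of 8 above 0 at 12 h. The 6 h median turned to -0.10 in the Cy5 channel alone, where the median of all genes was -0.04. With median centring it turned to -0.06, where that of all genes was -0.08. The 3 h median was -0.0036 in Cy5 alone. Only RYBP, a subunit that binds ubiquitin, rose past 1.5-fold at 12 h (0.66, and 1.02 at 6 h), and TFDP1, the dimer partner of E2F proteins, fell past it (-0.60, with -0.32 on a second probe). Among all genes 8.1% rose and 5.13% fell past 1.5-fold at 12 h. Genes that set the stability of MYC protein had medians of 0.12, 0.21 and 0.14, with 13 of 24 above 0 at 12 h. Median centring turned the last median to -0.07, where that of all genes was -0.16. This list pools ubiquitin ligases with deubiquitinases, so its median gives no direction for the stability of MYC. PIM1, a kinase that phosphorylates MYC, had log2 ratios of -1.99, -0.92, -0.66 and -0.67 and rose past 2-fold at each time (1.07, 1.33 and 1.32). USP36, a nucleolar deubiquitinase, had the lowest change at 12 h, -0.91. FBXW7, the ubiquitin ligase subunit that marks MYC for degradation, chosen after its values were seen, had 1.32 at 3 h from a spot in a damaged area, and 0.89 at 6 h and 0.40 at 12 h outside one.

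Genes that MYC is known to induce were mostly lower. The list of nucleolar and ribosome assembly genes had medians of -0.20 at 3 h, -0.33 at 6 h and -0.43 at 12 h, and 26 of 27 genes were below 0 at 12 h, where 8 fell past 1.5-fold and 0 rose, beside 5.13% and 8.1% of all genes. UTP20, a processing factor of the small ribosomal subunit, had log2 ratios of 0.78, 0.58, 0.13 and -0.65, a change of -1.43 at 12 h. WDR74, a factor of large subunit assembly, had -1.12 at 12 h, with -0.15 on its second probe. The exception was FBL, the methyltransferase of box C/D particles, at 0.20. Nucleolin (NCL, -0.74), dyskerin (DKC1, -0.78) and the ribosomal DNA factor UBTF (-0.77), chosen after their values were seen, also fell past 1.5-fold. MYC was lowest at 6 h, whereas the median of this list was lowest at 12 h.

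The list of metabolic and growth genes induced by MYC had medians of -0.06, -0.18 and -0.24, the first of which median centring turned to 0.01. At 12 h 27 of 37 genes were below 0, 9 fell past 1.5-fold and 3 rose, beside 5.13% and 8.1% of all genes, so the share that rose was near that of all genes. CAD, the first enzyme of pyrimidine synthesis, had -1.23 at 12 h and -0.96 at 6 h, and its 3 h value of -0.08 comes from a damaged spot. ID2, an inhibitor of helix-loop-helix factors, rose 2-fold at 12 h, with 1.03 on its second probe. Thymidylate synthase (TYMS), chosen after its values were seen, had -0.35, -0.46 and -0.99.

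Genes that MYC is known to repress were mostly higher, with medians of 0.19 at 3 h, 0.39 at 6 h and 0.65 at 12 h. At 12 h 17 of 18 genes were above 0, and 10 rose past 1.5-fold and 0 fell, beside 8.1% and 5.13% of all genes. Median centring gave list medians of 0.18 at 6 h and 0.26 at 12 h, where those of all genes were -0.08 and -0.16. The Cy5 channel alone gave 0.23 and 0.43, and the authors' own normalization 0.26 and 0.54. CDKN1C, a cell cycle inhibitor, had log2 ratios of -4.32, -3.76, -3.04 and -3.05 and rose past 2-fold at 6 h and 12 h (1.28 and 1.27). CDKN1A, the p21 inhibitor that MYC represses through MIZ1, chosen after its values were seen, had 0.15, 0.62 and 0.96. DKK1, a secreted Wnt antagonist, stood against the list with log2 ratios of 2.67, 1.15, 1.51 and 2.59, and fell past 2-fold at 3 h and 6 h (-1.53 and -1.16) but not at 12 h (-0.08). Like MYC, it was low at 3 h and 6 h and nearer to untreated at 12 h.

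Targets of MLX and MLXIP had medians of 0.13, 0.09 and 0.11, with 6 of 10 genes above 0 at 12 h. Median centring turned the 12 h median to -0.19, where that of all genes was -0.16. Feature Extraction's own ratio turned the 6 h and 12 h medians to -0.06 and -0.11, where those of all genes were -0.04 and -0.03. KLF10, a zinc finger factor, had 0.83 at 6 h and 0.67 at 12 h, and its 3 h value of 1.59 comes from a spot in a damaged area. Without damaged areas the 3 h median of the list was 0.01. The list medians were small and moved with the setting, and the Cy5 channel alone gave 0.02, -0.04 and 0.03. ELOVL6, a fatty acid elongase, was lowest at 12 h with -0.60. TXNIP, the best known target of MLXIP, chosen after its values were seen, rose past 2-fold at 3 h (1.104) and had 0.62 at 6 h and 0.20 at 12 h.

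**Figure D4:**
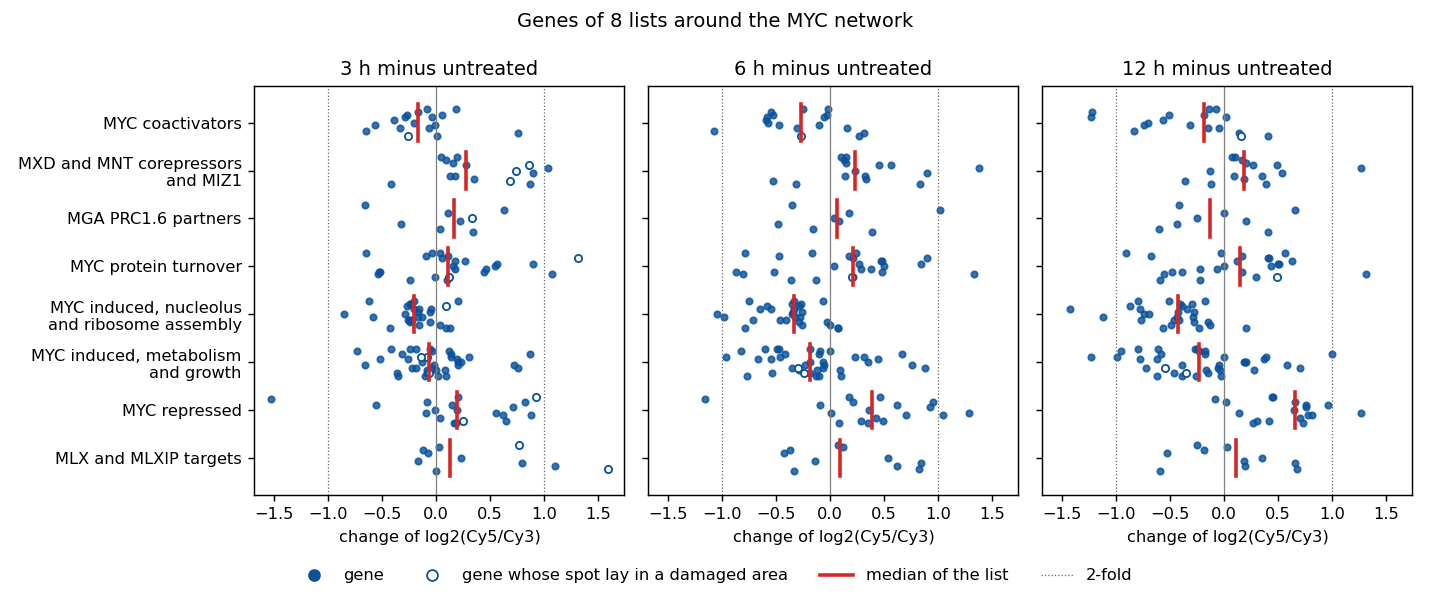
Change of log2(Cy5/Cy3) from the untreated array (horizontal axis) at 3 h, 6 h and 12 h for each measured gene of 8 lists around the network, with list medians in red and genes from damaged areas drawn open. At 12 h the nucleolar genes center on -0.43 with 26 of 27 below 0, and the genes repressed by MYC on 0.65 with 17 of 18 above 0.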

How the data were processed

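RNA of SUM149 cells, untreated or treated with Ricolinostat for 3, 6 and 12 h, was hybridised to 4 Agilent arrays of 2 colours. The authors deposited the spot intensities and local backgrounds of each array from Feature Extraction 12.0.1.1, with log10 ratios and flags of that software. An annotated table of normalized log2 ratios was deposited too, whose normalization is not given in the sources used here. It was correlated with the values obtained here at 0.975 to 0.976 over 29956 probes on each array. All of its columns of sample values were used.

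The median signal of each spot was background-corrected by normexp (offset 50), which shrinks the changes of dim probes. Control spots were then left out, arrays were normalized by loess and Aquantile (limma 3.58.1, R 4.3.3), outlier spots were set aside and spots of a probe averaged. Damaged areas were found in windows of 13 by 7 spots, where 10% or more were defective in Cy3 or flagged. Genes were counted at 2-fold if well above background in Cy5 and Cy3 on the 2 arrays compared. No test was made with 1 array per group. The steps were tested on simulated data.

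Named genes are all members, per list the largest rise and fall and those past 2-fold at 12 h, the 5 genes most like MYC, and HDAC6, of which some are not reported here, and others are marked as chosen after their values were seen. The members and lists were chosen with earlier results of these data known. Alternatives covered background correction, normalization, the Cy5 channel alone, the authors' table, probes of a gene, filters and thresholds. Tables were made in Python 3.11.15 with pandas 2.3.3. Promoter windows are of RefSeq and were matched by symbol. Probe coordinates are of another build and are not given.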

Additional observations from a re-analysis of the deposited data

Results flagged for a closer look

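The changes of MNT from untreated were above 0 at 3 h and below 0 at 6 h and 12 h. These differences were not tested, since there is 1 array at each time. For MNT the change at 6 h minus that at 3 h was -0.67 and the change at 12 h minus that at 3 h was -0.56, with the second probe in the same directions.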

How the results depend on the processing

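No paired analysis was possible because there is a single array at each time. A reversal of sign was called only where the change in the report was 2-fold or more. Among the members these were MYC at 6 h and MXD1 at 3 h and 6 h, and none reversed. Smaller changes that turned sign are counted below. Leaving out damaged areas or keeping flagged spots, both chosen after seeing the data, left the member counts and medians where they were. The cause of the moves below was not tested. The count of members past 2-fold at 3 h, 1 in the report, was 2 in the authors' table and 2 in the Cy5 channel alone, and at 6 h, 2 in the report, 1 with the median of a gene's probes and 3 with a normexp offset of 1 or no background subtraction. At 1.5-fold the counts were 3 at 3 h, 4 at 6 h, 2 at 12 h and 2 between 6 h and 12 h, and at 4-fold 0 at 3 h and 0 at 6 h. The member median at 6 h, 0.34 in the report, was 0.18 with median centring, 0.20 with Feature Extraction's ratio, 0.14 in the Cy5 channel alone and 0.18 with the median of a gene's probes. At 12 h, 0.37 in the report, these gave 0.045, 0.17, 0.22 and 0.17. Of the 12 alternatives, 7 moved the MYC changes at all, and under these and in the report MYC was lower than untreated, at -1.06 to -0.85 at 3 h, -1.35 to -1.07 at 6 h and -0.79 to -0.35 at 12 h, and MXD1, also moved by 7, was higher at 0.35 to 0.85 at 12 h. Of 40 member changes, 5 had the other sign with median centring and 3 with the median of probes. A normexp offset of 1, Feature Extraction's ratio, the authors' table and Cy5 alone turned 1 each. Of 27 list medians, 5 had the other sign with median centring, 3 in Cy5 alone, 2 with Feature Extraction's ratio and 1 without damaged areas. Median centring put 263 genes past 2-fold higher and 704 lower at 12 h, against 480 and 229 with loess, with all genes at -0.16, and at 6 h 430 and 404 against 573 and 191. Cy5 alone put 270 higher and 320 lower at 3 h, against 351 and 77. Signal over background limits dim probes, and the offset of 50 shrinks their changes.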
